A study of Mus musculus with 6 samples.

Results

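The 82 genes described here code for the proteins of the cytosolic ribosome in the mouse. They were chosen by symbol: protein-coding genes named Rpl or Rps with a number, together with Rpsa, Rplp0, Rplp1 and Rplp2, leaving out the Rps6k kinases and all pseudogenes. They are 82 of the 37620 gene identifiers counted, 50 of the large subunit and 32 of the small subunit, and 76 of them (47 large, 29 small) held enough reads to be tested among 16432 genes. RNA of whole hippocampi was sequenced from 3 wildtype mice and 3 mice labelled as miR-17-92 knockouts, a deletion of a cluster of microRNAs that are transcribed together. All 6 were C57BL/6 mice aged 13 weeks, each from another litter, and the labels give no further allele and no treatment for either group. Each mouse gave 1 library, so n = 3 per genotype throughout.

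A ribosome joins a small subunit, which reads the messenger RNA, to a large subunit, which forms the peptide bond, and most of its proteins are needed in 1 copy per particle. Their mRNAs are held in balance by shared controls: many begin with a terminal oligopyrimidine (TOP) tract, a C followed by a run of C and T, through which mTORC1 signalling and the RNA-binding protein LARP1 set how strongly they are translated. In neurons they are found in the cell body and also along dendrites and axons, where proteins are made locally. Mammalian genomes hold a great many processed pseudogenes of these genes, intron-free copies of the mRNA inserted elsewhere in the genome, so that a short read from the mRNA can match several places.

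Reads of some such copies differed widely between the mice, so coding stretches of 4 genes are set here beside a copy of each. They come from GENCODE M21 transcripts on GRCm38, read from 5′ to 3′, and capitals mark the bases at which gene and copy differ. The copies of Rps2, Rpl3 and Rps24 lie on chromosome X and that of Rpsa on chromosome 3. Over 882 aligned bases Rps2, whose protein lies at the mRNA entry side of the small subunit, differed from Rps2-ps13 at 7 (99.21% identity), and bases 25 to 84 of its coding sequence are shown.
Rps2: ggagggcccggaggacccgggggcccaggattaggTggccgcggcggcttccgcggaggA
Rps2-ps13: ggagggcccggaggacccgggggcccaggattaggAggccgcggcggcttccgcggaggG
Rpl3, a large subunit protein near the peptidyl transferase centre, differed from Rpl3-ps1 at 2 of 1210 bases (99.83%), and its first 60 coding bases are shown.
Rpl3: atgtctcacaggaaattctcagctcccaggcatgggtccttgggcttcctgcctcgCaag
Rpl3-ps1: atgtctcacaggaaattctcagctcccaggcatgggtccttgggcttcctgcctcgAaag
Rpsa, the small subunit protein also known as the laminin receptor, differed from Rpsa-ps10 at 6 of 885 bases (99.32%), and coding bases 160 to 219 are shown.
Rpsa: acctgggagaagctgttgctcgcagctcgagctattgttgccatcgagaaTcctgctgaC
Rpsa-ps10: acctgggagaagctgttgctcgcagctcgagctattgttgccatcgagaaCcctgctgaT
Rps24, a small subunit protein mutated in some patients with Diamond-Blackfan anaemia, differed from Rps24-ps3 at 4 of 402 bases (99.0%), and coding bases 321 to 380 are shown.
Rps24: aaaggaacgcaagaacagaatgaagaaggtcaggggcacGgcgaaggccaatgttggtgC
Rps24-ps3: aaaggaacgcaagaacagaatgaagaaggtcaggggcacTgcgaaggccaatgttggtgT
Within each stretch a read that misses the capitals matches gene and copy equally well.

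Reads assigned to genes ran from 26439693 to 57246827 per library. A further 20.2% to 22.6% of each file's total lay at several sites and was given to no gene. The host transcript of the cluster, Mir17hg on chromosome 14, held 36 to 47 reads in wildtype and 30 to 37 in knockout libraries (log2 fold -0.22, SE 0.28, adjusted p = 0.813). Neither the deleted part of the locus nor the cells that lost it are named in the labels, and these reads do not check the genotype. Markers of hippocampal pyramidal and granule neurons were read in every mouse, with 12 of 12 tested.

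As a set, the ribosomal protein genes differed between genotypes by less than the spread between mice. They took 0.246%, 0.244% and 0.233% of gene reads in wildtype replicates 1, 2 and 3 and 0.244%, 0.234% and 0.236% in knockout replicates 1, 2 and 3. The means of 0.241% ± 0.0071 and 0.238% ± 0.0055 (SD, n = 3) were closer than the spread within either group, and the groups overlapped. The 76 tested genes had a median log2 fold, knockout over wildtype, of -0.02, with 34 higher and 42 lower, beside a median of 0.00 over all 16432 genes. Large subunit genes had a median of -0.01 (21 higher, 26 lower) and small subunit genes one of -0.03 (13 higher, 16 lower). As these are whole hippocampi, fewer cells of a type and less RNA per cell cannot be told apart in any of the values.

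No ribosomal protein gene had an adjusted p under 0.05 in edgeR's quasi-likelihood test, as 0 of all 16432 genes had (0%). Rps2 came closest, with an adjusted p of 0.0624, and was the 1 gene of the set among the 0.11% of all genes under 0.10. At an unadjusted p under 0.05 there were 4 of 76, which is 5.26%, beside 10.6% of all genes. They were Rps2, Rps10 and Rpl10a on the lower side (3.95%, beside 5.58% of all genes) and Rpl15 on the higher side (1.32%, beside 5.05%). The genotypes did not overlap for 6 of the 76 (7.89%, beside 16.6% of all genes). Of these 4, among them Rps2, Rps10 and Rpl10a, were lower in every knockout mouse (5.26%, beside 8.34%), and Rpl15 and Rpl31 were higher in every knockout mouse (2.63%, beside 8.29%). Both shares were thus below those over all genes. DESeq2 and edgeR's robust fit each called 1 of these genes, Rps2, and limma-voom called 0. The share of all genes called by these 3 fits is not given here, so their calls have no such share beside them.

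**Figure D1:**
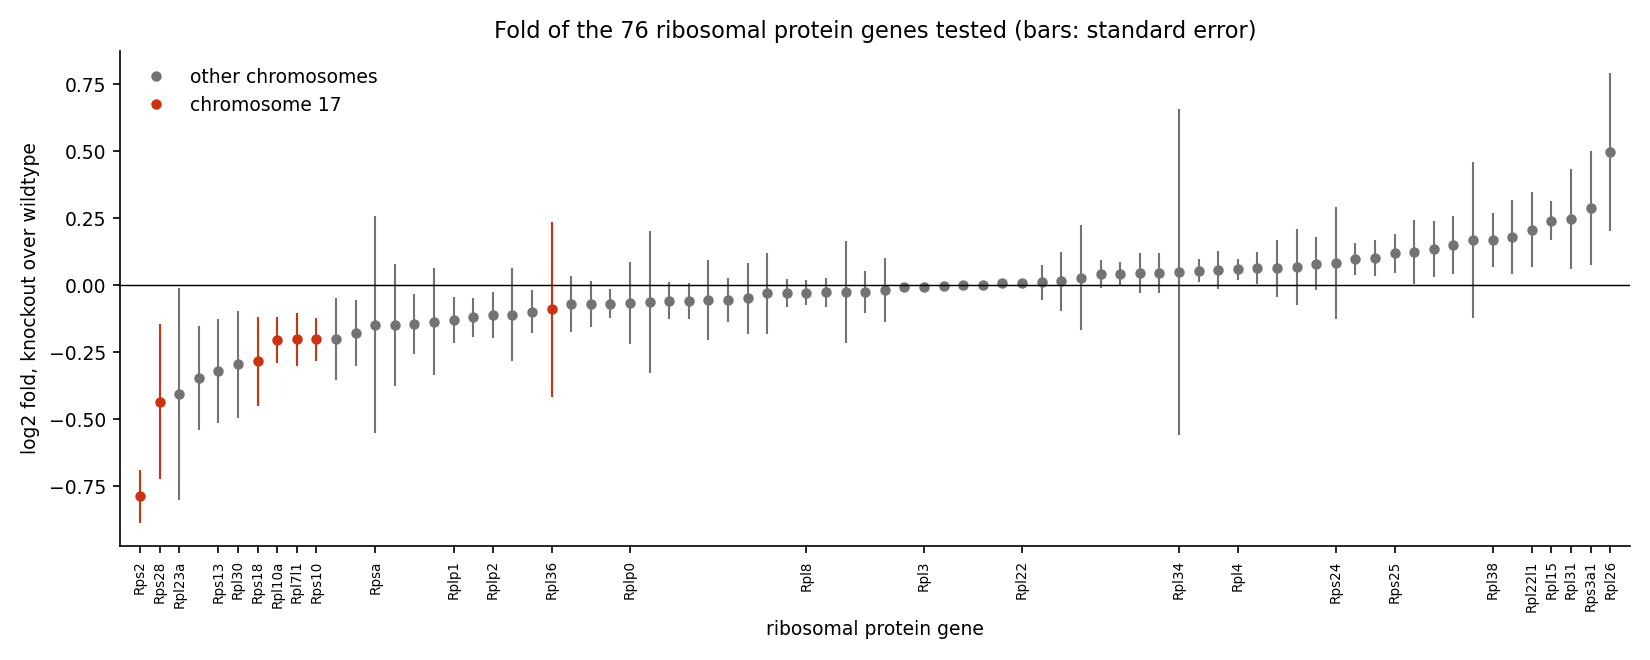
Log2 fold of knockout over wildtype for each of the 76 tested ribosomal protein genes (points, with SE as bars, which are left out for folds within 0.01 of 0), in order of the fold, with genes of chromosome 17 in red and some genes named on the axis. Most points lie within their own error of 0, Rps2 lies apart at -0.79, and all 7 genes of chromosome 17 lie below 0.

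Levels of the 82 genes were far from equal. Scaled to library size (CPM, the normalised read count used throughout) and to each kilobase of mRNA, the highest were Rpl4 (217), Rpl8 (189), Rpl22 (185), Rps15 (170) and Rps21 (164), and the lowest of those tested were Rps29 (1.76), Rpl36 (1.29), Rpl19 (0.797), Rpsa (0.641) and Rpl23a (0.529). The median was 15.3 over all 82, each scaled by the length of a chosen annotated transcript. Rpl4, which lines the exit tunnel of the large subunit, measured 326, 333 and 321 CPM in wildtype replicates 1, 2 and 3 and 351, 342 and 328 CPM in knockout replicates 1, 2 and 3. Rpl8, which sits by the peptidyl transferase centre, measured 159, 165 and 162 against 166, 160 and 151 CPM. Both overlapped between genotypes, with log2 folds of 0.06 (SE 0.04) and -0.03 (SE 0.05). A few genes that every cell needs were hardly counted at all. Rps27 held 3 reads over all 6 libraries, Rps12 held 4 to 6 reads in each, and Rps23 held 4 to 12, so none of them could be tested. Rpl10l, Rpl3l and Rpl39l, copies of Rpl10, Rpl3 and Rpl39 known from testis or muscle, were also too low, at 0 reads in every library, 1 to 20 reads and 1 to 9 reads. For Rpl10l, 0 reads leave room for as many as 3 in a library.

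Rps2 (ENSMUSG00000044533, chromosome 17) was the member that stood apart. It held 1413, 1181 and 945 reads in wildtype replicates 1, 2 and 3 and 541, 460 and 1071 reads in knockout replicates 1, 2 and 3. Scaled to library size this was 35.2, 27.0 and 29.7 CPM in wildtype and 16.8, 17.5 and 18.8 CPM in knockout, or 30.6 ± 4.2 against 17.7 ± 0.99 (SD, n = 3). All 3 knockout mice lay below all 3 wildtype mice, with a wide gap. The log2 fold was -0.79 (SE 0.10, edgeR adjusted p = 0.0624), the most negative of the 76. Over the same libraries the geometric mean of the other 75 tested genes stayed between 12.2 and 12.7 CPM. Against that mean Rps2 stood 1.48, 1.15 and 1.25 log2 units higher in wildtype and 0.42, 0.52 and 0.60 log2 units higher in knockout, a mean difference of -0.77. The adjusted p depended on the tool: it was 2.80e-09 with DESeq2, 0.0249 with edgeR's robust fit and 0.0738 with limma-voom.

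The pseudogene Rps2-ps13 differed along with it. It held 0 reads in each wildtype library, which leaves room for as many as 3, and 271, 243 and 2 reads in knockout replicates 1, 2 and 3, or 8.43, 9.23 and 0.035 CPM. Reads of the copy were thus present in 2 of 3 knockout mice, the libraries in which Rps2 itself was lowest, and nearly absent from the third. Other pseudogenes named after Rps2 held at most 6 reads in any library where they were read. When the reads of Rps2 and of the pseudogenes named after it were added together, the log2 fold was -0.39 (SE 0.14, adjusted p = 0.398 with edgeR). Adding instead all 42 counted pseudogenes that share a run of 50 bases with the Rps2 mRNA, a choice made after the data were seen, gave 36.9, 28.3 and 31.1 CPM in wildtype and 27.1, 28.3 and 20.4 CPM in knockout (log2 fold -0.36, SE 0.13, adjusted p = 0.411). By that sum knockout replicates 1 and 2 lay at or just below the lowest wildtype mouse, and knockout replicate 3 lay further down. Whether reads were placed on the copy in place of the gene, and how much of the difference in Rps2 that makes up, was not tested.

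**Figure D2:**
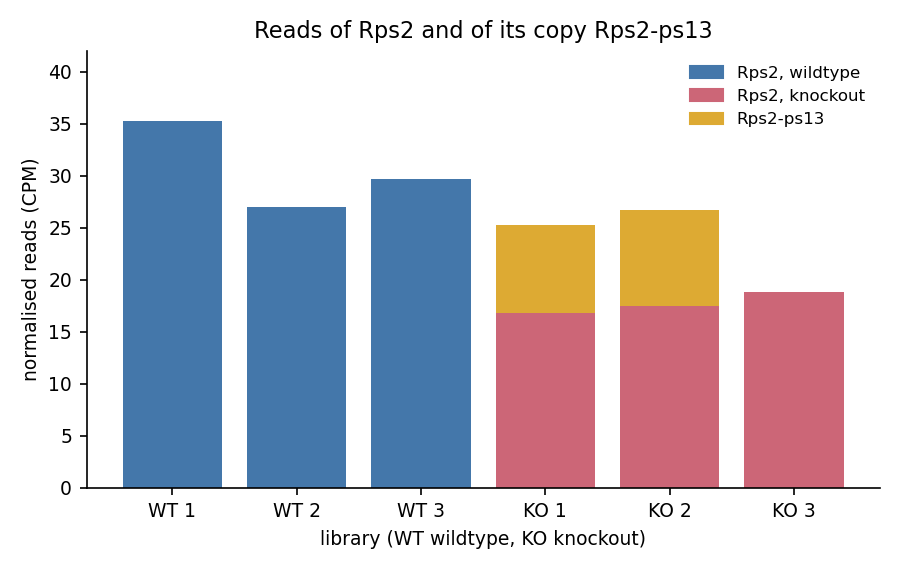
Reads of Rps2 (blue in wildtype, red in knockout) and of its pseudogene Rps2-ps13 (yellow, stacked on top) per library, in CPM. The copy adds 8.43 and 9.23 CPM in knockout replicates 1 and 2 and almost nothing in the other 4 libraries, and knockout replicate 3 stays lowest in the sum.

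Rps2 is 1 of 8 ribosomal protein genes on chromosome 17, and the 7 tested there were all lower in knockout. Their median log2 fold was -0.20, beside -0.003 for the 69 tested on other chromosomes (34 higher, 35 lower) and -0.02 for all 738 tested genes of chromosome 17. Of the 3 genes of the set that were lower at an unadjusted p under 0.05, all 3 lie on this chromosome, and off it there were 0 lower and 1 higher. Among all tested genes of chromosome 17 there were 61 lower and 46 higher by that measure. By direction alone, 414 of the 738 were lower and 324 higher, beside 8214 lower and 8218 higher over all tested genes.

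Rps10, a protein of the small subunit's beak, measured 10.9, 10.99 and 10.4 CPM in wildtype and 9.77, 8.96 and 9.31 CPM in knockout. Rpl10a, which forms the mobile stalk at the tRNA exit side of the large subunit, measured 12.04, 11.9 and 13.5 against 10.8, 10.2 and 11.4 CPM. For each of these genes the knockout mice lay below the wildtype mice, by a small step: the log2 folds were -0.20 (SE 0.08, adjusted p = 0.435) and -0.20 (SE 0.09, adjusted p = 0.456). Rps28, at 4.74, 2.06 and 4.86 against 3.11, 2.73 and 2.73 CPM, had a log2 fold of -0.43 (SE 0.29). Rps18 read 11.6, 7.15 and 10.8 against 8.27, 7.90 and 8.06 CPM, a log2 fold of -0.28 (SE 0.17). In both of these wildtype replicate 2 was the lowest of the 6 mice, so the genotypes overlapped. Rpl7l1, a relative of Rpl7 with a part in ribosome assembly, had 31.7, 26.4 and 31.8 against 28.6, 22.8 and 26.6 CPM and overlapped too (log2 fold -0.20, SE 0.10). Rpl36 was near the floor of the set, with a log2 fold of -0.09 (SE 0.33). Rpl3l, the untested one, lies 2 tested genes from Rps2 and held 10, 11 and 6 reads in wildtype and 3, 1 and 20 in knockout.

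**Figure D3:**
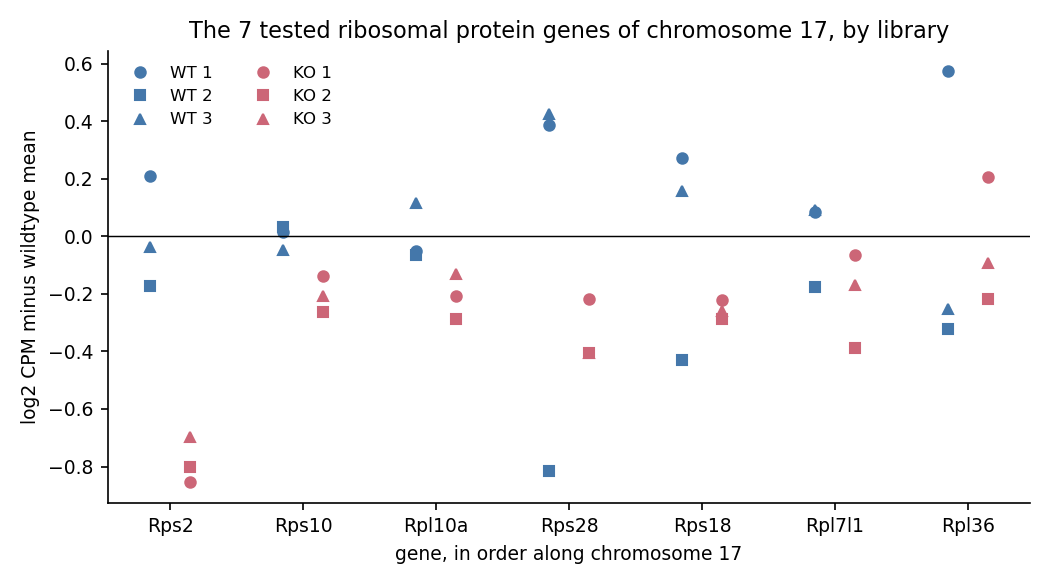
Log2 CPM of the 7 tested ribosomal protein genes of chromosome 17 in each library, minus the wildtype mean of the gene, in their order along the chromosome (wildtype blue, knockout red, replicates by symbol). Knockout points of Rps2, Rps10 and Rpl10a lie below all wildtype points, while wildtype replicate 2 is lowest for Rps28 and Rps18.

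Genes around Rps2 had smaller folds. Of the 10 tested genes on each side of it, 18 were lower and 2 higher in knockout, none at an unadjusted p under 0.05, with a median log2 fold of -0.08. Genotypes did not overlap for Syngr3, Ndufb10 and Mapk8ip3, which were lower, and for Gfer, which was higher. They overlapped for the rest, and 16.6% of all tested genes did not overlap. Ndufb10, a subunit of respiratory complex I next to Rps2, had a log2 fold of -0.08 (SE 0.05), and Tbl3, a nucleolar protein of rRNA processing on the other side, one of -0.13 (SE 0.09). Tsc2, the brake on mTORC1, had -0.12 (SE 0.07), and Zfp598, which senses collided ribosomes by way of Rps10 and Rps20, had -0.01 (SE 0.05). Gfer (0.16) and Nubp2 (0.05) were the 2 higher ones.

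On the higher side Rpl15, a large subunit protein embedded in its rRNA, measured 51.2, 44.2 and 48.9 CPM in wildtype and 52.1, 60.4 and 58.0 CPM in knockout, or 48.1 ± 3.6 against 56.8 ± 4.3 (SD, n = 3). Every knockout mouse lay above every wildtype mouse, knockout replicate 1 by less than 1 CPM. The log2 fold was 0.24 (SE 0.07, adjusted p = 0.334). Rpl31, low at 1.37, 1.07 and 1.22 against 1.43, 1.56 and 1.39 CPM, also did not overlap (log2 fold 0.25, SE 0.19, adjusted p = 0.669). Next by p among the higher genes came Rpl26, Rpl38 and Rps25, with log2 folds of 0.50 (SE 0.29), 0.17 (SE 0.10) and 0.12 (SE 0.07). All 3 overlapped between genotypes.

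The acidic stalk of the large subunit, which recruits the translation factors, is built of Rplp0, Rplp1 and Rplp2. All 3 had negative folds (-0.07, -0.13 and -0.11), none at an unadjusted p under 0.05. Rplp1 measured 86.5, 74.5 and 73.1 CPM in wildtype and 76.6, 63.0 and 74.1 CPM in knockout, where knockout replicate 2 was the lowest and wildtype replicate 1 the highest. Rplp0 measured 59.8, 53.9 and 39.4 against 40.5, 51.3 and 54.6 CPM, with low values in 1 mouse of each genotype. On the small subunit's head Rack1, a scaffold that binds kinases and is named outside the symbol rule, had a log2 fold of -0.02 (SE 0.05).

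Several members come in pairs of related genes, and in some pairs the proteins can stand in for each other. Rpl22 was read at 83.1 to 90.5 CPM and its relative Rpl22l1 at 11.3 to 16.9 CPM, with log2 folds of 0.01 and, for Rpl22l1, 0.21 (SE 0.14). Rpl7 had a log2 fold of 0.04 (SE 0.05) beside -0.20 for Rpl7l1. Rps27l, a p53 target, was read at 4.20 to 4.996 CPM while Rps27 was barely counted. Rps27l, Rpl3 and Rpl10 had log2 folds within 0.02 of 0, and those of Rpl39 and Rps4x were 0.12 (SE 0.12) and 0.01. Rps4x has no such relative in the set. None of the genes named here was apart between genotypes.

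Rps2-ps13 was not alone. A copy was taken to switch between mice where it held at least 30 reads in 1 library and its highest CPM was over 5 times its lowest, a rule made after the data were seen. Of all annotated pseudogenes and related genes that share a run of 50 bases with a ribosomal protein mRNA, 14 did so, copies of 12 members. Rpl3-ps1 held 264, 21 and 10 reads in wildtype and 22, 10 and 365 in knockout. Rps24-ps3 held 8, 11 and 186 against 237, 5 and 5, and Rps3a3 held 3, 353 and 1 against 2, 1 and 0. Each was on in some mice and nearly off in the rest, and the mice concerned were not the same for all 3. Rpsa-ps10, with 2, 765 and 1 against 554, 454 and 3 reads, was on in 1 wildtype and 2 knockout mice, and so held more reads than Rpsa itself, which had 19 to 85. Gm15772, a copy of Rpl26, was on in wildtype replicates 1 and 2 and knockout replicate 3 (98, 113 and 177 reads, and 0 in the others). These are the 3 deeper libraries, those with the most gene reads. Rps13-ps1 and Rps15a-ps8, copies of Rps13 and Rps15a, were instead on in the 3 shallower ones, with at most 1 read in a deeper one. The part of depth in this was not tested. Gm8730, a copy of Rplp0, was on in wildtype replicate 3 and knockout replicate 1 (129 and 110 reads, at most 3 in the others).

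Of the parent genes, Rpl3, Rps24, Rps3a1, Rpsa, Rpl26 and Rplp0 were each lower in the mice in which the copy was on. This did not hold in every mouse for Rps13. Rpl3 measured 8.92, 19.6 and 15.8 CPM in wildtype and 18.4, 17.2 and 9.03 CPM in knockout, lowest in the 2 mice with Rpl3-ps1 reads. Added to all its counted pseudogenes, it ran from 15.5 to 20.1 CPM, and the 2.19-fold range between mice narrowed to 1.30-fold. Rps3a1, at 21.6, 11.9 and 23.3 against 21.3, 25.9 and 22.0 CPM, was low only in wildtype replicate 2, the mouse with Rps3a3 reads, and its range narrowed from 2.18-fold to 1.30-fold. Rps24, at 21.7, 23.2 and 13.6 against 15.6, 22.2 and 24.2 CPM, narrowed from 1.78-fold to 1.23-fold. Rpl26, at 9.87, 9.60 and 17.4 against 21.1, 20.5 and 10.7 CPM, narrowed from 2.20-fold to 1.72-fold. Rpsa, at 1.32, 0.617 and 1.38 against 0.622, 0.721 and 1.49 CPM, went the other way, from 2.41-fold to 3.35-fold, since the sum is mostly reads of the copy. Among the other switching copies, Rps15a and Rps26 were likewise lower in the mice with reads of Rps15a-ps8 and Rps26-ps1. Rps13 went both ways. It was highest of the 6 mice in wildtype replicate 3, where Rps13-ps1 held 98 reads, at 3.08 CPM. It was lowest in knockout replicates 1 and 2, where that copy held 53 and 51 reads, at 1.90 CPM in each. Rpl15 and its copy Gm8420 (54, 1 and 32 against 48, 71 and 159 reads) were both lowest in wildtype replicate 2. Rpl7l1 of chromosome 17 was lower in the mice with reads of its copy Gm11222 (0, 24 and 0 against 11, 13 and 41 reads). With pseudogene reads added, the log2 fold of Rpl7l1 was -0.18 (SE 0.09).

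Over all 76 tested genes, adding the pseudogene reads narrowed the range between mice for 37, widened it for 16 and left it equal to 2 decimals for 23, and the median ratio of highest to lowest mouse went from 1.31 to 1.27. Of the 8 genes with a range over 2-fold, 4 came below it, while Rps13 went from 1.62-fold to 2.17-fold, so that 5 sums ranged over 2-fold. The sums left the set's genotype comparison as it was, with a median log2 fold of -0.02, 0 genes under an adjusted p of 0.05, and 3 lower and 1 higher at an unadjusted p under 0.05. Rpl34 was the widest member, at 1.70, 11.6 and 21.5 CPM in wildtype and 12.5, 11.05 and 12.02 CPM in knockout. It was low in wildtype replicate 1 alone and varied 12.7-fold, and its 7 counted pseudogenes held at most 4 reads together in any library, so no counted copy moved with it. Of the 195 genes named as ribosomal protein pseudogenes, 56 held no read in any library and 15 could be tested, 0 of them at an unadjusted p under 0.05.

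**Figure D4:**
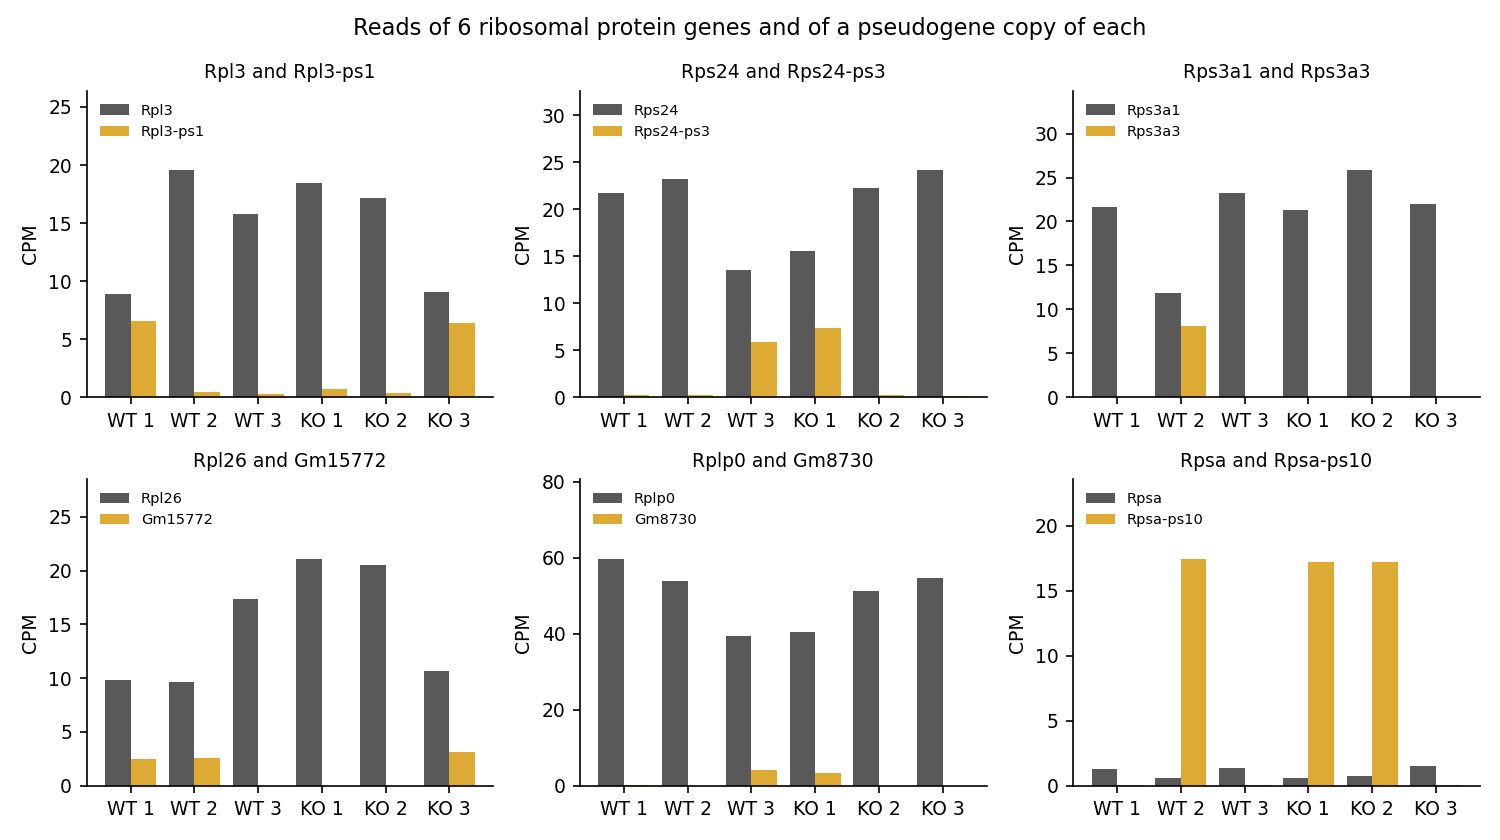
CPM of 6 ribosomal protein genes (grey) and of a pseudogene or related copy of each (yellow) in the 6 libraries. The grey bar is lower where the yellow bar is tall, as in wildtype replicate 1 and knockout replicate 3 for Rpl3, and the mice concerned are not the same in all panels. In the panel of Rpsa the copy exceeds the gene.

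The share of an mRNA found elsewhere in the transcriptome was set beside the level counted. For each gene a chosen annotated transcript was read as all of its 50-base windows. A window was shared when another annotated gene's transcript held it letter for letter. Some chosen transcripts were long, as for Rps15a (5130 bases, 6.14% shared, 15.8 CPM per kilobase) and Rps20 (3706 bases, 7.57%, 6.76 CPM per kilobase). A longer transcript lowers the level per kilobase, and also the share where its added bases are not shared. Whether the tissue uses these transcripts was not tested. The median share was 51.1% over the 82 genes, and 79 had a pseudogene among the sharers. Rps3 shared 2.96% of its windows and Rpl8 7.86%, and both were among the 10 highest per kilobase. Rps27 shared 98.65% and Rps12 90.11%, and both were all but uncounted. The order was loose: Rpl15 and Rps2 kept 65.4 and 24.2 CPM per kilobase at 75.17% and 79.03%. Across the 76 tested genes Spearman's rho between share and level per kilobase was -0.42, or -0.56 with 100-base windows, and over all 82 it was -0.31, or -0.44. Genes are not independent replicates, and low genes also have noisier values. From the least to the most shared class (0 to 25%, 25 to 50%, 50 to 75% and 75 to 100%), the 15, 25, 23 and 19 genes had median levels of 13.3, 19.9, 15.6 and 7.51 CPM per kilobase. The lowest median was thus that of the most shared genes, and the others were in no order. The 15 least shared genes include Rpl10l, Rpl3l and Rpl39l, which were too low to test and pull the median of that class down. The median SD within genotypes was 0.09 log2 units in the 12 tested genes under 25% and 0.17 in the 17 tested over 75%. Members varied more between mice of a genotype (median SD 0.14 log2 units) than all tested genes did (0.11). The part of read sharing in these levels was not tested.

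**Figure D5:**
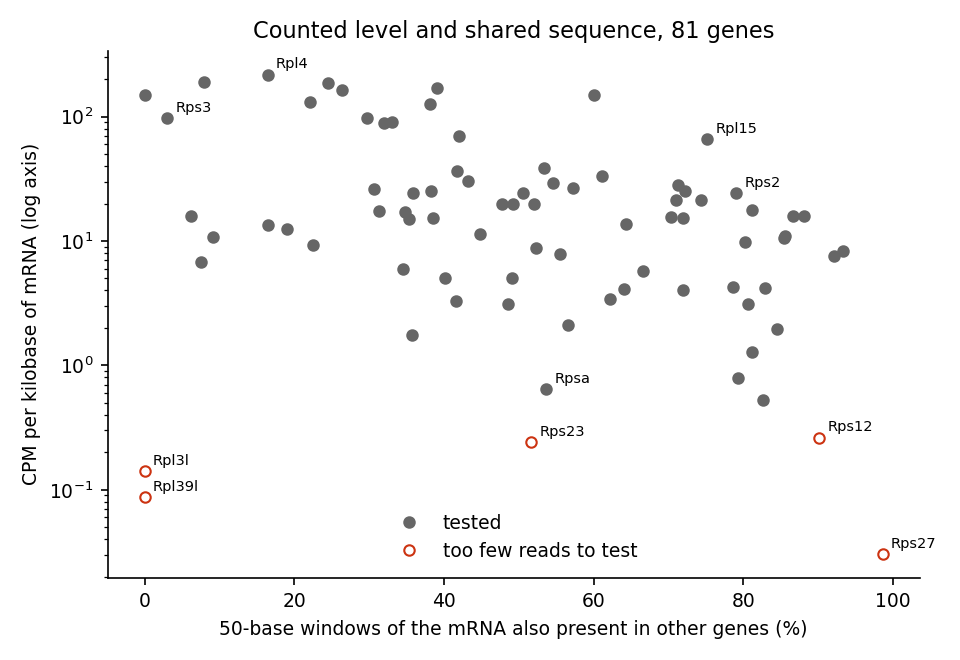
Mean level of each ribosomal protein gene (CPM per kilobase of mRNA, log axis) against the percentage of its 50-base windows that also occur in other genes, for the 81 genes with at least 1 read (grey tested, open red too low to test). Rps3 at the left is high, and Rps27 and Rps12 at the far right are almost uncounted, with wide scatter between.

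The TOP tract was looked for at annotated starts. RefSeq promoter entries on GRCm38.p6 were found for 62 of the 82 genes, and the tract was taken as a C at the annotated start followed by at least 4 bases that are each C or T, on the gene's strand. It was present in 13 of the 62 (21%), beside 813 of 27025 genes (3.0%). The bases around the start of the genes described above show it, from 10 before to 20 from the start on, with the tract in capitals where there is one.
Rpl15, chr14:18270967-18270996, minus strand: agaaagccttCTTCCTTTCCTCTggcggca
Rps10, chr17:27635225-27635254, minus strand: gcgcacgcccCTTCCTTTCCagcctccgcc
Rpl38, chr11:114668570-114668599, plus strand: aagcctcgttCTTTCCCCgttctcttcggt
Rps2, chr17:24720053-24720082, plus strand: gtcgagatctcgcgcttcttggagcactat
Rpl7l1, chr17:46782637-46782666, minus strand: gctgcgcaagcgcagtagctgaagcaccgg
Rpl15 was higher in knockout and Rps10 lower, and both begin with such a tract. Median log2 folds were -0.06 in the 12 tested genes with it and 0.00 in the 44 tested without it. An annotated start can lie some bases from the one used in the tissue, so a gene without the tract here may still carry it.

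Median folds of other genes of translation were small. The counts below stand beside 5.05% of all tested genes higher and 5.58% lower at an unadjusted p under 0.05 in the edgeR test. Among 22 tested mRNAs of translation known for a TOP tract 13 were higher and 9 lower (median log2 fold 0.03), with 3 higher and 1 lower at an unadjusted p under 0.05. The 3 higher ones were Npm1, a nucleolar chaperone (0.22), Nap1l1 (0.14) and Eif4a2, an initiation helicase (0.13). Of 25 initiation, elongation and termination factors 14 were higher and 11 lower, 4 and 1 by that measure, with Eif1ax at 0.13, Eif5 at 0.11 and the ribosome recycling factor Abce1 at 0.12. The mTORC1 pathway had 15 higher and 16 lower, 2 and 3 by that measure, with Rps6ka3 at 0.14 and the mTORC1 inhibitor Akt1s1 at -0.17. Assembly factors and rRNA synthesis had 31 higher and 23 lower of 54, 3 and 2 by that measure, with Npm1 again, Pno1 at 0.20 and Bysl at -0.14. The 8 snoRNA host genes had 7 higher and 1 lower, with Snhg11 at 0.11, Gas5 at 0.15 and Snhg12 at 0.13, of which Snhg11 alone was under 0.05.

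Lists that respond when ribosomes are short or stalled, and the mitochondrial ribosome, were also read. Their counts stand beside the same shares of all tested genes, 5.05% higher and 5.58% lower. Of 17 p53 targets 10 were higher and 7 lower, with 3 higher at an unadjusted p under 0.05, Fas (0.79), Trp53inp1 (0.22) and Zmat3 (0.11), and 0 lower. Ribosome quality control had 10 higher and 11 lower, 1 and 1, with Eif2ak3 at 0.13, Pelo, a rescue factor, at -0.23, and Ddit3 at 0.13. Mitochondrial ribosomal proteins, 76 tested, had 40 higher and 36 lower and a median of 0.01, with Mrpl35 at 0.15, Mrpl4 at -0.15 and Mrpl21 at 0.16. Their median SD within genotypes was 0.07 log2 units, about that of the translation factors (0.05) and below that of the cytosolic set. Nuclear genes of oxidative phosphorylation had 41 higher and 44 lower, 2 and 2 by that measure, with Ndufv1 at -0.16, Atp5j2 at 0.13 and Atp5mpl at 0.13. Mitochondrially encoded transcripts had 10 higher and 2 lower, 3 and 0, and the 3 of smallest p were mt-Nd2 (0.25), mt-Nd4 (0.18) and mt-Nd1 (0.22). With the mitochondrially encoded genes left out of the total, the cytosolic ribosomal share was 0.249% in wildtype and 0.247% in knockout. Outside the symbol rule Rpl36al and Fau had 0.14 and -0.05.

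Marker genes of several cell types differed more between genotypes than the ribosomal set did. Levels are given as the mean log2 CPM of a list minus its mean over the 6 libraries. The ribosomal set lay between -0.03 and 0.04 in every library. Meningeal markers, 10 of 10 higher in knockout and 6 at an unadjusted p under 0.05, lay at -0.40, -0.06 and -0.25 in wildtype and 0.20, 0.26 and 0.25 in knockout, and astrocyte markers, 9 of 10 higher and 5 by that measure, lay at -0.13 to -0.05 and 0.01 to 0.19. Both lists had genotypes apart as Rps2 did, and their part in the difference of Rps2 was not tested. Oligodendrocyte markers had 8 of 10 lower and 1 by that measure, microglia 7 of 10 lower with 2, endothelium 7 of 10 lower with 3, blood 4 of 5 lower with 2, newborn neurons 5 of 8 lower with 2, and choroid plexus 3 of 6 lower with 0. Markers of pyramidal and granule neurons had 7 of 12 higher with 1, and general neuronal markers 7 of 10 higher with 2. Over all tested genes 5.58% were lower and 5.05% higher by that measure. Tested genes with reads in all 6 libraries were compared with Rps2 by log2 CPM. Most like it were Usp21, Cabp1, Wdtc1, Acvr2b and Slc39a8, with Pearson's r of 0.996 to 0.985, and none of them is a ribosomal protein gene. The mean of the other 75 genes was most like Sppl2b (0.982), an identifier without a symbol (0.982), Lrrc24 (0.980), Acin1 (0.978) and Tmem40 (0.976). Such values are the highest of 16399 over 6 points, in libraries that differ in depth and composition.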

How the data were processed

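Hippocampal total RNA was column-purified with on-column DNase treatment, as the protocol in the labels says. The files the authors deposited hold raw read counts per Ensembl gene, 1 table per mouse. The submitters' processing notes name build mm9 and the tools STAR (2.3.0e), HTSeq, SAMtools, DESeq2 and FastQC (0.10.1). What each tool did, which annotation served and whether counting used strand is not given in the sources used here. Reads of overlapping or antisense genes therefore cannot be separated, and counts of genes with close copies are uncertain. The 5 last entries of each table name no gene, held 38.0% to 40.3% of its total and were left out.

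Names (32897 of 37620 identifiers), chromosomes, gene order and transcripts were taken from GENCODE M21 on GRCm38, and no mm9 coordinates are given. CPM used TMM library sizes. Genotype alone was tested with edgeR 4.0.16 in R 4.3.3 (quasi-likelihood, filterByExpr, Benjamini-Hochberg over all genes at 0.05). SEs are the fold divided by the root of F, with none given for folds within 0.01 of 0. The code was tested on simulated counts. The ribosomal genes, the 11 pathway and 10 marker lists and the tests were chosen with earlier results of these data known.

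Named were Rps2, the stalk, Rpsa, Rack1, members with a paralog and their partners, members on chromosome 17, the 5 members of smallest p per direction, the 5 highest and lowest per length, members whose genotypes did not overlap, and up to 3 genes per pathway list. A few genes that it covers are left unreported. Rps3, Rps12, Rps23, Rps24, Rps3a1, Rpl34 and the copies were chosen after their values were seen. Alternatives were other scaling factors and filters, DESeq2 1.42.0, limma-voom (limma 3.58.1), a robust edgeR fit, the replicate number as a block, an adjusted p of 0.10, the 3 deeper and 3 shallower libraries apart, summed pseudogene reads and each library left out.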

Additional observations from a re-analysis of the deposited data

How the results depend on the processing

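Rps2 kept its direction in every setting run. Without a filter it was -0.79 (adjusted p = 0.00183), with DESeq2 -0.79 (2.80e-09) and with the robust fit -0.79 (0.0249), and so the count of ribosomal genes called went from 0 to 1 in these 3 and at an adjusted p under 0.10. Leaving out 1 library gave folds of -0.87 to -0.68 and 0 to 1 called. The call came without wildtype replicate 2 (adjusted p = 0.0285). Shares of all genes called in these settings, other than at 0.10, are not given here. Rps2 minus the mean fold of the others was -0.77, or -0.84 to -0.68 without 1 library, and -0.33 with pseudogene reads summed, which moved reads of its copies into it. Lower genes at an unadjusted p under 0.05, 3 of them, were 1 with DESeq2, 0 off chromosome 17 and 1 to 5 without 1 library (5 without wildtype replicate 2 or knockout replicate 1, 1 without knockout replicate 2). Higher ones, 1, were 2 without a filter and 1 to 3 without 1 library (3 without wildtype replicate 1, and 2 without wildtype replicate 3, knockout replicate 2 or knockout replicate 3). The set's median of -0.02 was 0.018 within the shallower libraries (wildtype 3, knockout 1 and 2) and -0.023 to 0.017 without 1 library. The difference in read share was -0.0065 to 0.0001 percentage points. Settings with summed reads of all pseudogenes and off chromosome 17 were added after the data were seen, and the cause of these shifts was not tested.

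Same-numbered mice come from different litters, and the replicate numbers pair nothing: deviations correlated at -0.10, -0.02 and -0.15. With the number as a replicate block the fold of Rps2 was -0.78 (adjusted p = 0.187) and 0 genes were called.

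Of 554 values of 31 other named genes, 499 kept their direction, some with another size, and 55 turned, 16 of them within the deeper or shallower libraries. Within the deeper libraries Rpl10, Rpl19, Rpl22, Rpl39, Rpl4 and Rpsa turned, and within the shallower ones Rpl19, Rpl3, Rpl36, Rpl8, Rplp0, Rps15, Rps21, Rps27l, Rps29 and Rps4x. With all libraries those that turned were Rpl19 (-0.004 with upper quartile factors, -0.009 with library totals, -0.028 summed), Rps27l (-0.002, -0.007 and, with the block, -0.002), Rpl22 and Rps4x (-0.001 each with library totals), Rpl3 (0.011 with DESeq2, 0.006 with the block, 0.002 summed), Rpl10 (0.011 with limma-voom) and Rpsa (0.47 summed). Leaving out 1 library turned Rpl36 (-0.26 to 0.26), Rplp0 (-0.22 to 0.064), Rps29 (-0.21 to 0.10), Rps4x (-0.025 to 0.034), Rpsa (-0.71 to 0.068), Rpl19 (-0.24 to 0.19), Rpl3 (-0.27 to 0.27), Rps27l (-0.054 to 0.071), Rpl10 (-0.12 to 0.04), Rpl22 (-0.030 to 0.033), Rps21 (-0.16 to 0.015) and Rpl8 (-0.063 to 0.01). Rpsa, Rpl19, Rpl36, Rps29 and Rpl23a held at most 85 reads in any library, and the size of difference such counts can show was not tested.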
